A study of Homo sapiens with 6 samples.

Results

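The expression of 9 genes of the NRF2 antioxidant response and of glutathione and thioredoxin defence was examined in LNCaP cells with and without a high cumulative dose of FIR. The genes were NFE2L2, KEAP1, NQO1, SLC7A11, GCLC, GCLM, TXNRD1, SRXN1 and GPX4, taken by gene name, and each had 1 row among the 16311 genes of the deposited count table. LNCaP is an established androgen-sensitive line of human prostate adenocarcinoma cells, obtained from ATCC and grown in RPMI1640 medium with 10% FBS. Total RNA was sequenced from 3 libraries of untreated cells and from 3 libraries of cells labelled FIR+ (40 Gy), a cumulative dose. The labels do not spell out FIR and give neither its fractions nor the time of harvest, and the series title speaks of radiation-induced neuroendocrine-like cells. Both groups were the same line with no engineered allele named. The titles mark the replicates BR, which is not spelled out, and do not say whether they were separate cultures. The spread behind each p-value is therefore that of these libraries and may be only technical.

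NRF2, the product of NFE2L2, is a transcription factor kept scarce by KEAP1, an adaptor that presents it to a CUL3 ubiquitin ligase. Oxidants and electrophiles modify KEAP1, and NRF2 then accumulates, pairs with a small MAF protein and binds antioxidant response elements near genes for detoxification, cystine import, glutathione synthesis and the thioredoxin system. Cystine imported by SLC7A11 feeds glutathione synthesis, and glutathione serves GPX4 in the removal of lipid peroxides.

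RefSeq promoter windows on GRCh38.p14, each from 250 bases before to 50 bases after an annotated start, were searched for the core letters of the antioxidant response element, TGACNNNGC, on both strands. A match on the opposite strand reads GCNNNGTCA. Of the 9 genes 8 had a window in that table, 13 windows in all, and SLC7A11 was not among them. The core was found in 4 windows of 3 genes, GCLM, TXNRD1 and KEAP1, beside 4687 of 35116 windows of all genes (13.3%). One window of each of these 3 genes is shown with its matches in capitals, since 1 of them fell, 1 rose and 1 was not called, together with the window of NQO1, which fell furthest of the 9. All read 5′ to 3′ on the strand of the gene.
GCLM, chr1:93909381-93909680, minus strand: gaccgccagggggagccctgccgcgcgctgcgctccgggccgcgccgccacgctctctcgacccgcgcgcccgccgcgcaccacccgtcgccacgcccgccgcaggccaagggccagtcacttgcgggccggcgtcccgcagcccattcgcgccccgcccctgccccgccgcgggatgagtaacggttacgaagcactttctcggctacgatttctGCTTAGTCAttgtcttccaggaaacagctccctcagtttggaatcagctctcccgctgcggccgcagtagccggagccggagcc
TXNRD1, chr12:104215529-104215828, plus strand: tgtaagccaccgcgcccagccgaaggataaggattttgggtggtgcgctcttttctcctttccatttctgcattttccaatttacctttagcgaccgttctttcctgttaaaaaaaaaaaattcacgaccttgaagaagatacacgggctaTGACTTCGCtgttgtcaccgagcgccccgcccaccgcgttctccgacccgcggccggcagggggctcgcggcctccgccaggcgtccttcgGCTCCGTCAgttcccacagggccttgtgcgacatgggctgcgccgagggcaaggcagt
KEAP1, chr19:10502722-10503021, minus strand: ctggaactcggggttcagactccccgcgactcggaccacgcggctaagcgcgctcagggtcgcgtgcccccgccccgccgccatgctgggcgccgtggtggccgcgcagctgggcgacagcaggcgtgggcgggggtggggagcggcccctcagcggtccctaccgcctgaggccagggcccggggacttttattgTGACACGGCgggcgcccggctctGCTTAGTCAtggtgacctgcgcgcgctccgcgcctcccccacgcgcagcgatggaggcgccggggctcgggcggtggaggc
NQO1, chr16:69726511-69726810, minus strand: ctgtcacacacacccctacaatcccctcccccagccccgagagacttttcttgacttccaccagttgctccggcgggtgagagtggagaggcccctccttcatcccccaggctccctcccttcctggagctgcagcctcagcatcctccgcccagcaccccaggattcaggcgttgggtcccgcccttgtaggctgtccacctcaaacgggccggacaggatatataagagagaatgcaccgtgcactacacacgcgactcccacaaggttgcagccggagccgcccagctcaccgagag
Counted from the start, the first base of the GCLM match lay at -34, on the opposite strand. The TXNRD1 window held a forward match at -99 and an opposite one at -8, and the KEAP1 window a forward match at -54 and an opposite one at -31. The NQO1 window held 0 matches, which says only that these letters were not in those 300 bases. A match describes letters and not binding.

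Read totals over the table ran from 15703483 to 21004697 per library, and each of the 9 genes had between 427 and 8589 reads in every library. Levels are given as CPM, reads scaled to a fixed library total with TMM factors, and 3 reads stood for 0.139 to 0.194 CPM. Fold changes are FIR over untreated, with the SE and 95% interval of edgeR's quasi-likelihood fit. A gene was called when its Benjamini-Hochberg adjusted p, taken over all 16311 genes, was below 0.05. All 9 luminal prostate markers examined had a row, with KLK3 at 2958 and 2282 CPM in untreated and FIR cells. Of 14 markers of immune, endothelial, fibroblast and basal cells 2 had a row, COL1A1 and KRT14. Their summed level was 24.1 to 27.2 CPM in untreated and 7.95 to 9.26 CPM in FIR libraries, with COL1A1 lower (24.0 and 5.33 CPM) and KRT14 higher (1.61 and 3.49 CPM) in FIR cells. The part of these markers in the results was not tested.

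NQO1 and SLC7A11 fell to 0.260 and 0.299 times their untreated level, GCLC rose to 1.34 times and TXNRD1 to 1.17 times, GCLM fell to 0.837 times, and NFE2L2, KEAP1, SRXN1 and GPX4 were not called. In all 5 of the 9 genes were called, 2 higher and 3 lower. Among all genes 48.7% were called, 25.4% higher and 23.4% lower, so the share of the 9 genes that was called is close to that of all genes. NQO1 and SLC7A11 were called and at least 2 times lower, as were 7.37% of all genes. The 9 genes were chosen with earlier results of these data known, so setting them beside this share is no test. The untreated and FIR libraries did not overlap for 5 of the 9 genes, beside 56.9% of all genes. The median log2 fold change was 0.0095 over the 9 genes and 0.0082 over all genes. The same 5 of the 9 genes have an adjusted p below 0.05 in the authors' deposited table.

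**Figure D1:**
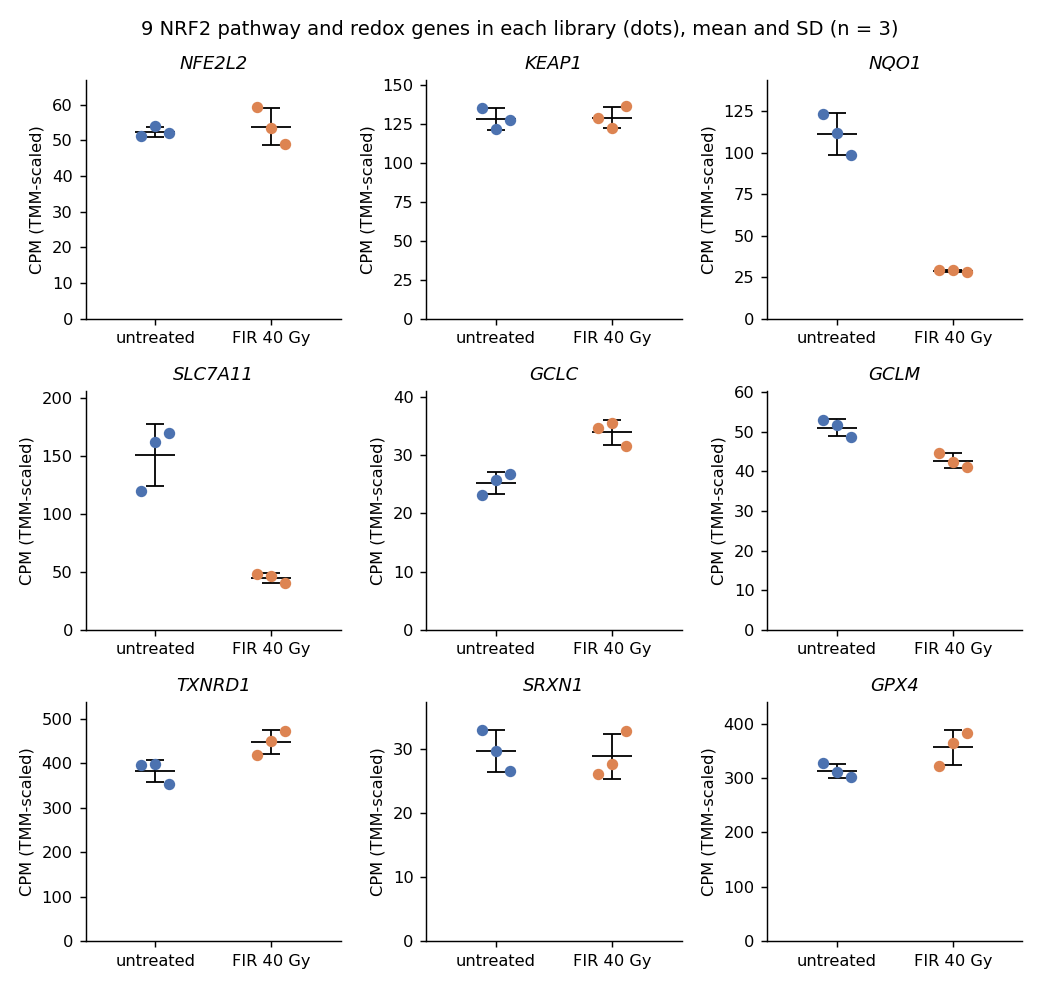
Level of each of the 9 genes in CPM (linear axes from 0, a scale of its own in each panel) in 3 untreated and 3 FIR libraries, with dots for libraries, horizontal bars for means and whiskers for SD. The FIR dots of NQO1 (28.2 to 29.3 CPM) and SLC7A11 (40.0 to 48.2 CPM) lie far under the untreated dots, and those of NFE2L2, KEAP1, SRXN1 and GPX4 overlap them.

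The regulators came first. NFE2L2 (ENSG00000116044.16, chromosome 2, 177227595 to 177392697, hg38), which encodes NRF2 itself, had 51.2, 54.0 and 52.0 CPM in untreated cells and 59.3, 53.4 and 48.9 CPM after FIR. The groups overlapped, with the highest and the lowest value both among the FIR libraries. Its log2 fold change was 0.04 (SE 0.09, 95% interval -0.15 to 0.23, adjusted p = 0.747).

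KEAP1 (ENSG00000079999.14, chromosome 19, 10486125 to 10503558), the repressor of NRF2, had 136, 122 and 128 CPM untreated and 129, 122 and 136 CPM after FIR. Both groups covered nearly the same range. Its log2 fold change was 0.01 (SE 0.08, 95% interval -0.16 to 0.18, adjusted p = 0.933). Within a library the ratio of NFE2L2 to KEAP1 reads was 0.378, 0.444 and 0.406 untreated and 0.459, 0.437 and 0.358 after FIR, a log2 difference of 0.03 (exact two-sided permutation p = 0.90). These are transcript levels, and NRF2 protein was not measured in these data.

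Around this pair, CUL3, the scaffold of the ligase that removes NRF2, and MAFG, a small MAF partner, had log2 fold changes of -0.18 (SE 0.10) and 0.05 (SE 0.10), and neither was called (adjusted p = 0.15 and 0.73). Of 18 measured genes of NRF2 control 7 rose, 4 fell and 7 were not called, with a median log2 fold change of 0.03. Beside this and every later list, 25.4% of all genes were called higher and 23.4% lower. The lists were chosen with earlier results of these data known, so these counts carry no test. MAFF, another small MAF protein, rose from 1.68 ± 0.193 to 3.80 ± 0.315 CPM (SD, n = 3), a log2 fold change of 1.17. NFE2L1, a factor related to NRF2, rose by 0.58 (325 ± 24.5 to 484 ± 23.9 CPM). BACH1, a repressor that competes with NRF2 for its elements, rose by 0.49, and SQSTM1, which binds KEAP1, by 0.30. FBXW11, GSK3B and MAFK rose by 0.51, 0.39 and 0.32. Untreated and FIR libraries overlapped for SQSTM1 and MAFK, though the model called both (adjusted p = 0.027 and 0.018). The 4 that fell were PGAM5, a KEAP1-bound phosphatase at -0.64, the DNA repair gene PALB2, whose product also binds KEAP1, at -0.49, the ubiquitin ligase SYVN1 at -0.32 and the ligase subunit RBX1 at -0.28. DPP3, a KEAP1-binding peptidase and, after KEAP1, the highest in CPM of those not called, stood at -0.17. BACH2 had no row and was not analysed here.

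NQO1 (ENSG00000181019.13, chromosome 16, 69706996 to 69726668), the quinone reductase most used as a readout of NRF2 activity, had 123, 112 and 98.4 CPM untreated and 29.2, 29.3 and 28.2 CPM after FIR. All FIR libraries lay below all untreated ones, and the FIR values sat within about 1 CPM of each other. The mean went from 111 ± 12.5 to 28.9 ± 0.60 CPM (SD, n = 3), a level 0.260 times that of untreated cells (95% interval 0.226 to 0.299). The log2 fold change was -1.94 (SE 0.10, adjusted p = 3.4e-10), and 2.918% of all genes had a log2 fold change as low or lower. The RNA came from whole cultures, so a lower level in each cell and fewer cells with a high level cannot be told apart.

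NQO1 was the lowest of 22 measured detoxification genes listed as NRF2 targets, of which 5 rose, 8 fell and 9 were not called (median -0.21). CBR1, a carbonyl reductase, fell by 1.04 on the log2 scale (49.7 ± 2.35 to 24.1 ± 3.56 CPM), and UGDH, which makes UDP-glucuronate, by 1.02 (95 ± 10.3 to 46.7 ± 4.90 CPM). HMOX1, the inducible haem oxygenase, had 9.34, 8.31 and 9.98 CPM untreated and 8.08, 9.33 and 10.6 CPM after FIR. The HMOX1 groups overlapped, at 0.02 on the log2 scale (SE 0.16, 95% interval -0.31 to 0.35, adjusted p = 0.93). The 5 that rose were AKR1C3 at 2.04 (SE 0.50), the epoxide hydrolase EPHX1 at 0.72, the transporter ABCC4 at 0.52, SQSTM1 at 0.30 and the ferritin light chain FTL at 0.25. AKR1C3, an aldo-keto reductase that acts on steroids, was scarce, with 0.0584 to 0.365 CPM untreated and 0.943 to 1.10 CPM after FIR. Its reads were 7, 6 and 1 untreated and 16, 17 and 15 after FIR. It may thus have a row only through the FIR group, where it was higher, so its place among the 5 carries no weight. It also shares much sequence with its neighbours in the family, so its counts are uncertain. FTH1, the ferritin heavy chain, stood at -0.20 on the log2 scale (adjusted p = 0.09) and has many processed copies. AKR1B1, AKR1B10, AKR1C1, ABCC2, ABCC3 and ALDH3A1 had no row and were not analysed here.

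SLC7A11 (ENSG00000151012.13, chromosome 4, 138164097 to 138242349) encodes xCT, the cystine-glutamate exchanger that supplies cysteine for glutathione. It had 120, 162 and 170 CPM untreated and 48.2, 46.7 and 40.0 CPM after FIR. The groups did not overlap, and untreated replicate 1 was the lowest of its group but still far above the FIR libraries. The mean went from 151 ± 26.8 to 45.0 ± 4.37 CPM (SD, n = 3), 0.299 times the untreated level (95% interval 0.250 to 0.357). The log2 fold change was -1.74 (SE 0.12, adjusted p = 1.7e-08), and 3.476% of all genes were as low or lower. Of its 9645 exon bases 865 (8.97%) are shared with SLC7A11-AS1 on the other strand, and whether counting used strand is not given in the sources used here. SLC7A11-AS1 was scarce at 1.03 and 0.291 CPM (log2 fold change -1.81, adjusted p = 0.0054), and its reads cannot be told apart from those of SLC7A11 if counting ignored strand.

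SLC3A2, the heavy chain that carries xCT and several other transporters to the membrane, was not called. It had 227, 214 and 245 CPM untreated and 196, 226 and 253 CPM after FIR. These ranges overlapped (log2 fold change -0.02, SE 0.09, 95% interval -0.22 to 0.17, adjusted p = 0.85). Per exon length, SLC7A11 stood at 0.354 ± 0.0635 of SLC3A2 in untreated and 0.109 ± 0.0237 in FIR cells (RPKM ratio, SD, n = 3).

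Of 19 measured genes of cystine supply and of glutathione synthesis or breakdown 2 rose, 8 fell and 9 were not called (median -0.22). Apart from SLC7A11, GCLM and GSR, the genes that fell were enzymes of cysteine synthesis and of glutathione breakdown. CTH, which releases cysteine from cystathionine, went from 14.4 ± 2.12 to 7.36 ± 1.25 CPM (log2 fold change -0.97), and CBS, the enzyme before it, stood at -0.83. CHAC1 and CHAC2, which degrade glutathione inside the cell, fell by 2.31 (27.8 ± 6.51 to 5.61 ± 0.588 CPM) and 1.08 (7.62 ± 2.46 to 3.62 ± 0.463 CPM). GGCT, which acts on gamma-glutamyl peptides, stood at -0.85. GLO1, the glyoxalase that uses glutathione, and GCLC were the 2 that rose, at 0.94 and 0.43. ANPEP and DPEP1 had no row and were not analysed here.

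GCLC and GCLM encode the catalytic and the modifier subunit of glutamate-cysteine ligase, the first and rate-limiting enzyme of glutathione synthesis, and they moved in opposite directions. GCLC (ENSG00000001084.13, chromosome 6, 53497341 to 53616970) had 23.1, 25.8 and 26.8 CPM untreated and 34.7, 35.6 and 31.6 CPM after FIR. All FIR libraries were above all untreated ones, 0.43 higher on the log2 scale (SE 0.10, 95% interval 0.21 to 0.64, adjusted p = 0.0026).

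GCLM (ENSG00000023909.10, chromosome 1, 93885199 to 93909456) had 52.9, 51.6 and 48.7 CPM untreated and 44.7, 42.5 and 41.0 CPM after FIR. All FIR libraries were below all untreated ones, though by little (log2 fold change -0.26, SE 0.08, 95% interval -0.44 to -0.08, adjusted p = 0.019). This call did not hold when untreated replicate 1, untreated replicate 2, FIR replicate 2 or FIR replicate 3 was left out (adjusted p = 0.061, 0.056, 0.057 and 0.073). Per exon length, GCLM stood at 3.23 ± 0.383 times GCLC in untreated and 2.0 ± 0.0912 times in FIR cells (RPKM ratio, SD, n = 3).

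Further along the pathway, GSS, which adds glycine to complete glutathione, was not called (173, 156 and 167 CPM untreated, 185, 176 and 186 CPM after FIR, log2 fold change 0.14, adjusted p = 0.12). GSR, which returns oxidised glutathione to its reduced form, had 368, 343 and 284 CPM untreated and 279, 232 and 288 CPM after FIR. Its groups overlapped through untreated replicate 3 and FIR replicate 3, while the model called it lower (log2 fold change -0.32, SE 0.10, adjusted p = 0.017). That call did not hold without untreated replicate 1, untreated replicate 2 or FIR replicate 2 (adjusted p = 0.068, 0.057 and 0.090).

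**Figure D2:**
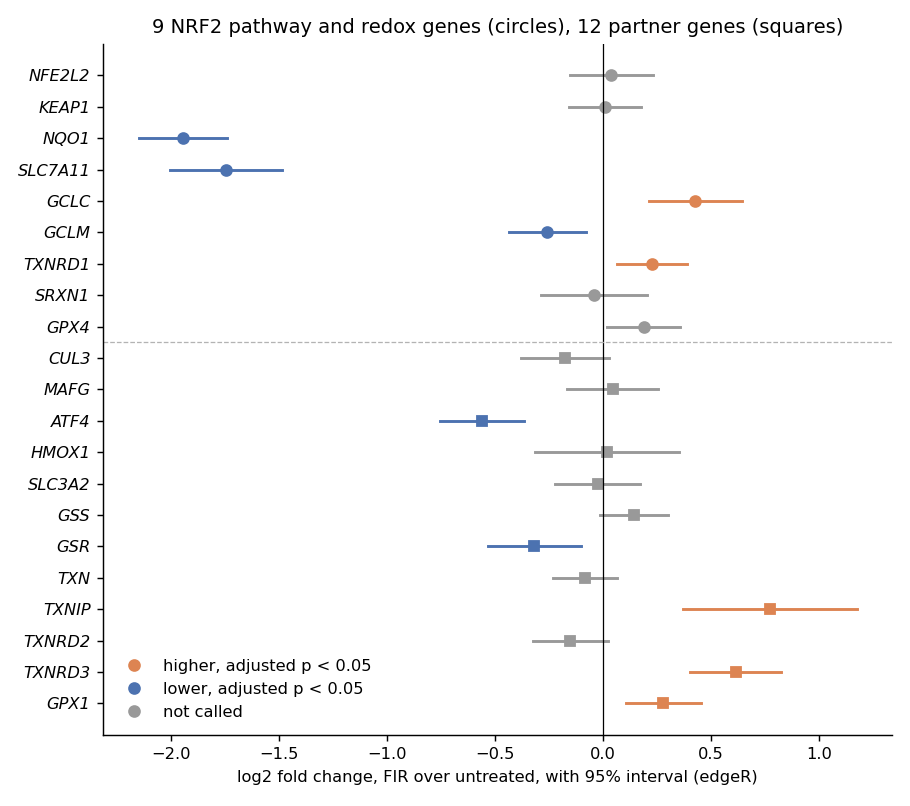
Log2 fold change of FIR over untreated with its 95% interval from edgeR for the 9 genes (circles) and 12 partner genes (squares), coloured by call, with 0 as the vertical line. NQO1 at -1.94 and SLC7A11 at -1.74 stand apart from the other 7 genes, which lie between -0.26 and 0.43.

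TXNRD1 (ENSG00000198431.16, chromosome 12, 104215779 to 104350307), the cytosolic selenoenzyme that reduces thioredoxin with NADPH, had 396, 399 and 354 CPM untreated and 420, 450 and 473 CPM after FIR. All FIR libraries lay above all untreated ones by a small margin. The log2 fold change was 0.23 (SE 0.08, 95% interval 0.06 to 0.39, adjusted p = 0.023). Leaving out untreated replicate 2 or 3 or FIR replicate 2 or 3 ended the call (adjusted p = 0.054, 0.095, 0.060 and 0.107), and so did scaling by library size (adjusted p = 0.071).

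SRXN1 (ENSG00000271303.1, chromosome 20, 646615 to 653370), sulfiredoxin, which restores overoxidised peroxiredoxins, had 33.0, 29.6 and 26.5 CPM untreated and 26.1, 27.7 and 32.8 CPM after FIR. The groups covered nearly the same range (log2 fold change -0.04, SE 0.12, 95% interval -0.29 to 0.20, adjusted p = 0.786). Of its 2698 exon bases 2292 (85%) are shared on the same strand with another listed gene, AL121758.1, at 0.695 and 0.923 CPM. How shared reads were counted is not given in the sources used here, so the level of SRXN1 is uncertain.

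TXN, thioredoxin itself, was not called (201, 193 and 199 CPM untreated, 182, 191 and 187 CPM after FIR, log2 fold change -0.08, adjusted p = 0.36). TXNRD2, the mitochondrial reductase, was not called either (-0.15, SE 0.08, adjusted p = 0.14). TXNRD3, a reductase known from testis, rose from 22.4 ± 0.852 to 34.2 ± 2.17 CPM (log2 fold change 0.61, adjusted p = 1.1e-04). TXNIP, which binds and inhibits thioredoxin, had 128, 144 and 256 CPM untreated and 269, 347 and 285 CPM after FIR. Untreated replicate 3 came close to the FIR libraries, and the TXNIP call (log2 fold change 0.77, SE 0.19, adjusted p = 0.0032) was lost with DESeq2 (adjusted p = 0.055).

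Of 24 measured genes of the thioredoxin, peroxiredoxin and glutaredoxin systems 6 rose, 3 fell and 15 were not called (median -0.03). The largest rises were those of NXN, nucleoredoxin, from 20.0 ± 1.15 to 71.5 ± 3.35 CPM (log2 fold change 1.84, adjusted p = 3.1e-10), and PRDX6, a peroxiredoxin that uses glutathione, from 432 ± 10.9 to 920 ± 72.3 CPM (1.09, adjusted p = 1.5e-08). GLRX, glutaredoxin, rose by 0.54. The 3 that fell were the methionine sulfoxide reductase MSRB1 at -0.71 and the mitochondrial PRDX3 and GLRX5 at -0.47 and -0.29. PRDX2, an abundant cytosolic peroxiredoxin, stood at 469 ± 14.2 and 456 ± 24.6 CPM (-0.04, adjusted p = 0.68).

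GPX4 (ENSG00000167468.16, chromosome 19, 1103926 to 1106791), the selenoenzyme that reduces lipid hydroperoxides in membranes, had 327, 310 and 301 CPM untreated and 321, 365 and 383 CPM after FIR. The groups overlapped through FIR replicate 1, and the log2 fold change of 0.19 (SE 0.08, 95% interval 0.02 to 0.36) missed the threshold (adjusted p = 0.0615). Without FIR replicate 1 GPX4 was called higher (0.26, adjusted p = 0.019).

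Among 5 measured glutathione peroxidases 1 rose, 1 fell and 3 were not called (median 0.19). GPX1, the cytosolic enzyme, rose by 0.28 (376 ± 36.9 to 456 ± 24.2 CPM, adjusted p = 0.010), and its call did not hold without untreated replicate 2 or FIR replicate 3 (adjusted p = 0.071 and 0.055). GPX8, of the endoplasmic reticulum, fell from 6.57 ± 1.34 to 1.36 ± 0.200 CPM (-2.26, adjusted p = 2.3e-06). GPX2 and GPX3, secreted or epithelial forms, stood at -0.14 and 0.22. GPX5, GPX6 and GPX7 had no row and were not analysed here.

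Ratios within a library, which no scaling between libraries can move, set NQO1 and SLC7A11 against the genes of glutathione synthesis and the thioredoxin system. NQO1 had 2.33, 2.16 and 2.02 reads for each GCLM read in untreated cells and 0.653, 0.691 and 0.689 after FIR. All FIR ratios lay below all untreated ones, a log2 difference of -1.68. Against GCLC, TXNRD1 and SRXN1 the log2 differences of NQO1 were -2.36, -2.16 and -1.89.

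SLC7A11 had 2.27, 3.14 and 3.49 reads per GCLM read untreated and 1.08, 1.10 and 0.975 after FIR, a log2 difference of -1.48. Its log2 differences against GCLC, TXNRD1, SRXN1 and SLC3A2 were -2.16, -1.96, -1.69 and -1.70. GCLM against GCLC went from 2.29, 2.0 and 1.81 to 1.29, 1.19 and 1.30, a log2 difference of -0.68. The untreated and FIR libraries overlapped for NFE2L2 over KEAP1 and for no other of the 11 ratios compared. Of these ratios 9 have NQO1 or SLC7A11 on top, so they restate the falls of those genes, and the share of all gene pairs without overlap was not computed (56.9% of single genes had none). With 3 libraries against 3 the exact two-sided permutation test cannot go below p = 0.10, which 10 ratios reached (adjusted p = 0.11 over the 11), so none could pass 0.05.

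**Figure D3:**
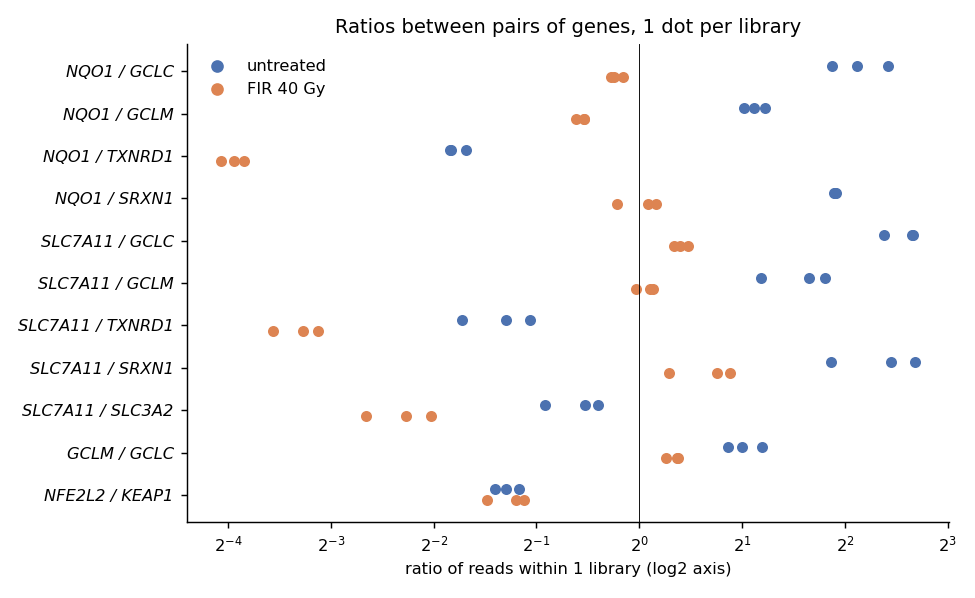
Ratio of reads between pairs of genes within each library (log2 axis), with blue dots for 3 untreated and orange dots for 3 FIR libraries and a line at a ratio of 1. The ratios of NQO1 and SLC7A11 to every other gene shown are lower in all FIR libraries, while NFE2L2 over KEAP1 overlaps between groups.

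The order of the 9 genes was compared per exon length, as RPKM computed from the counts. In untreated cells GPX4 led with 155 ± 6.52 RPKM, followed by TXNRD1 with 57.1 ± 3.77, NQO1 with 37.4 ± 4.20 and KEAP1 with 35.9 ± 1.97 RPKM, and the ranges of NQO1 and KEAP1 overlapped. SLC7A11 had 15.6 ± 2.77 RPKM and SRXN1 11 ± 1.20. GCLM and NFE2L2, at 9.41 ± 0.404 and 9.24 ± 0.253 RPKM, were not separate, and GCLC was lowest with 2.93 ± 0.224 RPKM.

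In FIR cells NQO1 moved down from the level of KEAP1 to that of NFE2L2. GPX4 (176 ± 15.8 RPKM), TXNRD1 (66.7 ± 4.01) and KEAP1 (36.2 ± 1.97) led. SRXN1 (10.7 ± 1.29), NQO1 (9.73 ± 0.202) and NFE2L2 (9.49 ± 0.921) overlapped with their neighbours in that order. GCLM (7.88 ± 0.345), SLC7A11 (4.66 ± 0.454) and GCLC (3.94 ± 0.244) closed the order. SLC7A11 was thus above GCLM in untreated and below it in FIR cells. The same held against SRXN1 as computed, but 85% of SRXN1 exon bases are shared with AL121758.1. The level of SRXN1 per length, and so its place in both orders, is therefore uncertain.

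Further lists covered redox genes beyond the 9. Of 14 measured glutathione S-transferases 4 rose, 7 fell and 3 were not called (median -0.31). MGST3, a microsomal enzyme, rose from 36.1 ± 2.11 to 104 ± 6.70 CPM (log2 fold change 1.52, adjusted p = 1.7e-09), and MGST2 stood at 0.01 (adjusted p = 0.91). GSTT2B (-1.73) and GSTA1 (-1.05) were the lowest, and both have near-identical copies, so their counts are uncertain. Of the 22 transferases listed, GSTA3, GSTM1, GSTM2, GSTM4, GSTM5, GSTP1, GSTT2 and HPGDS had no row and were not analysed here.

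NADPH feeds glutathione reductase, the thioredoxin reductases and NQO1. Of 10 measured genes of NADPH supply 0 rose, 5 fell and 5 were not called with edgeR (median -0.24). Among all genes 48.7% were called, 23.4% of them all as lower. ME1, cytosolic malic enzyme, went from 145 ± 4.61 to 52.1 ± 2.39 CPM (-1.47, adjusted p = 8.5e-10). TKT, transketolase, went from 569 ± 30.4 to 314 ± 8.79 CPM (-0.86), and NADK2, the mitochondrial NAD kinase, from 102 ± 5.54 to 65.1 ± 2.58 CPM (-0.64). IDH1 and PGD, which make NADPH in the cytosol, stood at -0.49 and -0.27 and completed the 5. TALDO1, transaldolase, had 251 ± 15.1 and 247 ± 9.10 CPM (-0.02, adjusted p = 0.82).

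Of 5 genes of superoxide and peroxide removal 2 were lower, SOD2, the mitochondrial superoxide dismutase (58.2 ± 2.81 to 44.7 ± 3.24 CPM, -0.38), and CCS, the copper chaperone of SOD1 (-0.28, adjusted p = 0.022, and 0.105 without FIR replicate 1). SOD1 had 296 ± 12.4 and 295 ± 9.60 CPM. Of 7 genes listed under selenocysteine insertion, SEPHS1 (-0.53) and SEPHS2 (-0.30) were lower and 5 were not called (median -0.24). TXNRD1 and GPX4 depend on that process, but not necessarily on each gene listed, SEPHS1 included. The SEPHS2 call did not hold without FIR replicate 1 (adjusted p = 0.122).

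Of 19 measured genes of lipid peroxidation and iron, the setting in which GPX4 acts, 8 rose, 5 fell and 6 were not called (median -0.01). ACSL4, which loads polyunsaturated fatty acids for membrane lipids, went from 3.06 ± 0.0828 to 12.9 ± 2.06 CPM (log2 fold change 2.07, adjusted p = 1.9e-07). LPCAT3, which places them in phospholipids, went from 45.7 ± 4.87 to 92.2 ± 8.23 CPM (1.01). TFRC, the transferrin receptor for iron uptake, went from 396 ± 84.6 to 175 ± 19.0 CPM (-1.18).

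SLC7A11 is also a target of ATF4, the factor of the amino acid and integrated stress response, and so is CHAC1. ATF4 itself had 487, 496 and 610 CPM untreated and 336, 387 and 359 CPM after FIR. All FIR libraries lay below (-0.56 on the log2 scale, SE 0.09, adjusted p = 1.2e-04). Of 21 measured genes in a list of ATF4 and its targets 2 rose, 16 fell and 3 were not called. ATF4 and SLC7A11 were among those that fell. The median was -0.98, and -0.88 over the 20 genes other than SLC7A11, with ATF4 still counted. Among all genes 23.4% were called lower, and the list was chosen with earlier results of these data known. SLC1A5, a glutamine transporter, fell from 188 ± 16.0 to 21.2 ± 3.08 CPM (-3.15, adjusted p = 8.2e-12), and PHGDH, the first enzyme of serine synthesis, from 600.0 ± 71.3 to 122 ± 6.92 CPM (-2.30). The 2 that rose were the stress factor ATF3 at 1.11 and VLDLR at 0.79, and NUPR1, SLC3A2 and DDIT3 were not called (-0.10, -0.02 and 0.18). Whether ATF4 has a part in the fall of SLC7A11 was not tested, and ATF4 protein was not measured in these data.

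**Figure D4:**
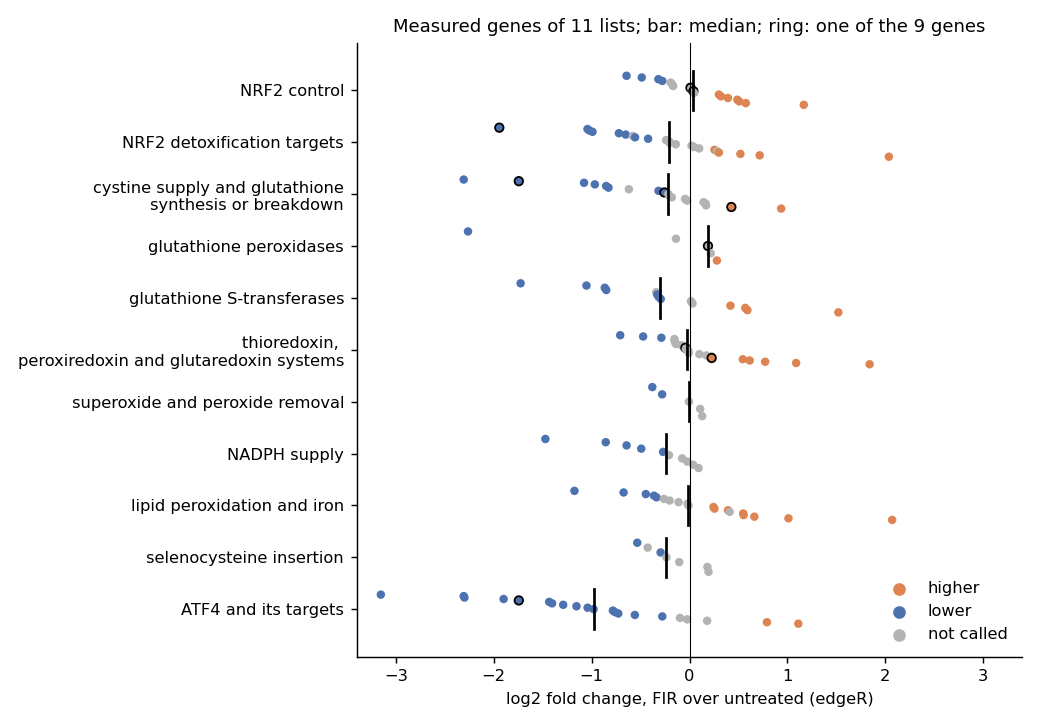
Log2 fold change of FIR over untreated for each measured gene of 11 lists (1 dot per gene, coloured by call, a black bar for the median of the list, rings for the 9 genes). The genes of the list of ATF4 and its targets lie mostly left of 0 (median -0.98, ATF4 itself included), and the other lists have medians between -0.31 and 0.19.

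The genes whose profile over the 6 libraries was nearest to that of NQO1, by the distance between centred log2 CPM values among 11094 genes of at least 5 CPM, were RFC5 (distance 0.122), GPSM2 (0.167) and RRM1 (0.170). RFC5, a subunit of the clamp loader of DNA replication, went from 45.0 ± 5.96 to 12 ± 0.469 CPM. RRM1, the large subunit of ribonucleotide reductase, went from 151 ± 19.5 to 41.6 ± 1.99 CPM. Nearest to SLC7A11 were HGD (0.249), SLITRK6 (0.272) and HAUS4 (0.280), with log2 fold changes of -1.68, -1.70 and -1.66. These distances describe likeness over 6 libraries of 2 groups and carry no test.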

How the data were processed

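RNA of 3 untreated and 3 FIR libraries of LNCaP cells was measured by sequencing. The deposited table holds unnormalized read counts for each gene in each library, per the file headers. It also gives the authors' log2 fold changes and adjusted p-values, per the file headers, which were used only for the deposited calls. The submitters' processing notes list STAR 2.5, Subread 1.6.2 with featureCounts, bcl2fastq, edgeR 3.20.8 and hg38, without their settings. The sources used here give neither the strand setting nor the handling of reads that map to several genes.

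Counts were scaled by TMM and fitted with group as the only term in edgeR 4.0.16 under R 4.3.3 (glmQLFit, glmQLFTest), with Benjamini-Hochberg adjustment over 16311 genes and a threshold of 0.05. The filterByExpr rule (minimum count 10) removed 0 genes. Totals of 15703483 to 21004697 reads limit precision. The value of 3 reads in CPM only converts reads to CPM and is not the error of a level. The 95% intervals of fold changes include the spread between libraries. SE is the size of the log2 fold change over the square root of its F statistic. RPKM was computed from the counts, TMM factors and the exon length in the table. No spike-in was used here, so a change is one relative to all other genes. List counts cover genes with a row only, and a scarce gene may have a row through the group where it was higher. Each library was counted as 1 replicate. Libraries of a group differed by more than sampling noise (chi-square per degree of freedom 4.75 to 14.6), which does not show that they were separate cultures.

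The 9 genes, the 11 gene lists (190 entries) and the tests were chosen with earlier results of these data known. Named genes were the 9, 12 fixed partners, and from each list the 3 called genes that changed most, if at 1 CPM or more in a group, and the most abundant one not called, plus the 3 nearest profiles to NQO1 and SLC7A11. Other genes named to complete small counts, and BACH1, SQSTM1, CBS, GGCT, GLO1, GLRX and GPX2, were chosen after their values were seen. Values of 1 further list and 1 marker are not reported here. The rows of GSTT1, MSRA and EEFSEC lie on alternate sequences. The fit was tested on simulated data. Ratios between genes were tested by exact two-sided permutation over libraries. Alternatives tried were DESeq2 1.42.0 and limma-voom (limma 3.58.1), scaling by RLE, by upper quartile or by library size, omission of the filter or one at 1 CPM in at least 3 libraries, a block for the replicate number, omission of each library, and 0.5 added to reads in the ratios.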

Additional observations from a re-analysis of the deposited data

How the results depend on the processing

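NQO1, SLC7A11 and GCLC kept their direction and call under all 14 alternatives, with log2 fold changes of -2.05 to -1.87, -1.89 to -1.67 and 0.36 to 0.48. Under library-size scaling 1 of the 9 genes was called higher, since TXNRD1 went to 0.17 (adjusted p = 0.071). Leaving out 1 library in turn gave 1 to 3 of the 9 genes higher and 2 to 3 lower. In these runs TXNRD1 ranged from 0.15 to 0.27, GCLM from -0.31 to -0.23 and GPX4 from 0.13 to 0.26, with the lost and gained calls given beside each gene. No call of the 9 genes or of the 58 others picked by the naming rule reversed under these alternatives. The uncalled NFE2L2 (-0.04 to 0.10), KEAP1 (-0.05 to 0.05) and SRXN1 (-0.14 to 0.03) changed sign between settings. Of those 58 genes 5 lost a call in some setting and 4 gained one (TXNRD2, CUL3, DPP3 and FTH1). Among all genes, 3401 to 4162 were higher and 3368 to 4346 lower, omitting the filter changed no gene, and AKR1C3 had no value under the filter of 1 CPM in 3 libraries.

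Libraries with the same replicate number showed no shared deviation from their group means (correlations 0.032, -0.054 and -0.071). Pairs with different numbers ran from -0.11 to 0.14. With so few libraries this cannot decide whether the numbers pair cultures, and the labels do not say. With the replicate number as a block 3988 genes were higher and 3668 lower, 2 of the 9 genes were higher and 3 lower, and NQO1 and SLC7A11 stood at -1.94 and -1.73.

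The main limits are that 3 libraries against 3 cannot take an exact test below 0.10, that the counting of overlapping genes is not known (SRXN1 above all), and that falls and rises of around 0.2 on the log2 scale, such as those of GCLM and TXNRD1, depend on single libraries.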
